A study of Homo sapiens with 4 samples.

Results

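The transcripts examined were those of 10 epithelial junction genes, the cadherins CDH1 and CDH3, the claudins CLDN1, CLDN3, CLDN4 and CLDN7, OCLN, TJP1, EPCAM and DSP, chosen by gene symbol from the 53826 entities listed for each library. All 10 symbols were found in the 4 tables, and 9 of them reached a TPM of 5 in every library. TPM is the share of a transcript among all transcripts of a library, after allowing for its length. The libraries came from PK-1, a human pancreatic cancer cell line, with 1 library for each of 4 conditions. Stable SPRR1A cells carried a pMXs retroviral vector with FLAG-tagged SPRR1A, and stable DsRed cells carried pMXs with the red fluorescent protein. Transient SPRR1A and transient GFP cells were transfected with pCAG plasmids for FLAG-tagged SPRR1A or green fluorescent protein, and their RNA was isolated after 48 h. The share of cells that took up a vector, and whether the stable cells were a single clone, are not given in the sources used here. The conditions were compared to see what overexpression of SPRR1A, a small proline-rich protein of squamous epithelia, does to gene expression, and the study also examined markers of epithelial-mesenchymal transition (EMT) by RT-PCR, which is not analysed here. Since a condition was sequenced once, the differences could not be checked against replicates, and they are given without p-values. In such bulk libraries, a lower level can mean fewer cells with the transcript or less of it per cell, and these cannot be told apart.

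Epithelial cells are held together by a set of junctions along their sides. Tight junctions near the apex are strands of claudins and occludin (OCLN) bound inside the cell by scaffolds such as ZO-1 (TJP1), and they set what passes between cells. Adherens junctions beneath them are built on classical cadherins, which bind their like on the next cell and are tied to actin through catenins, and desmosomes tie cell contacts to keratin filaments through desmoplakin (DSP). EPCAM is an adhesion molecule of simple epithelia that binds and stabilizes CLDN7. Loss of CDH1 (E-cadherin) and its companions under the repressors of the SNAI and ZEB families, which bind E-box sequences in their promoters, is a hallmark of EMT.

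The genes lie on 8 chromosomes of GRCh38 (RefSeq, patch 14), and 2 pairs are neighbors. CDH3 (chr16:68645310-68733771) and CDH1 (chr16:68737292-68835537) are separated by 3520 bp. CLDN3 (chr7:73768997-73770270) and CLDN4 (chr7:73830996-73832690) are genes of a single exon, separated by 60725 bp and transcribed in opposite directions. The others are CLDN1 (chr3:190305707-190322446), CLDN7 (chr17:7259903-7263213), OCLN (chr5:69492547-69558104), TJP1 (chr15:29699367-29969049), EPCAM (chr2:47369311-47387020) and DSP (chr6:7541671-7586714). The end of CLDN7 overlaps that of ELP5, which was expressed at a log2 TPM of 5.39 to 5.83, and CLDN1 lies inside the span of CLDN16, which was listed at 0 in all 4 libraries. OCLN has a partial copy on the same chromosome, the transcribed pseudogene OCLNP1 (listed as LOC647859), so the division of reads between them is uncertain. The treatment of strand and of reads that match several genes is not given in the sources used here.

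RefSeq promoter sequences were matched for 7 of the 10 genes, and those of CDH1, CDH3 and EPCAM were not used here. The 250 bases before the start of CLDN4 and CLDN3 are shown in lower case because these neighboring genes stood at opposite ends of the expression range of the claudins, as described below.

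CLDN4 (chr7:73830746-73830995, plus strand): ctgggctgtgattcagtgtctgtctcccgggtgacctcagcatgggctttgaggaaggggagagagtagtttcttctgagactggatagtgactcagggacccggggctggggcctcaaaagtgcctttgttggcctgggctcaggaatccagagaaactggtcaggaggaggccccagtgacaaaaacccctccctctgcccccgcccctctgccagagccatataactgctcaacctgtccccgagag

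CLDN3 (chr7:73770271-73770520, minus strand): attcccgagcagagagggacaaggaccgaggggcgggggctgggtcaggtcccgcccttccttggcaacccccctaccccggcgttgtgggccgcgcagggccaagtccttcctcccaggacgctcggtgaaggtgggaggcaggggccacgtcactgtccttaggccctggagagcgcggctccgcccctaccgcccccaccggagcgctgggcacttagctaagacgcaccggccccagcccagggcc

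The window of CLDN3 had a GC content of 71.6% and 19 CpG dinucleotides, and that of CLDN4 had 58.8% and 4, against medians of 58.0% and 11 over 27305 promoters. The E-box CACCTG, searched on both strands (CAGGTG on the other), was in neither window. It was found before OCLN and TJP1, where it occurred singly, and before DSP, where it occurred at 2 places. Thus 3 of 7 windows held it, against 17.5% of all windows of that length, a share not matched for GC content. The windows of OCLN, TJP1 and DSP had a GC content of 68.8%, 66.8% and 78.0%. Those of CLDN1 and CLDN7, which held no E-box, had 68.8% and 60.4%. The E-boxes are shown in capitals with the bases around them, since the transcripts of repressors that bind such sequences are described below.

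OCLN, from -33 (chr5:69492502-69492531, plus strand): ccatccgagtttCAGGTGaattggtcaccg
TJP1, from -88 (chr15:29969120-29969149, minus strand): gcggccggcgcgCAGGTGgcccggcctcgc
DSP, from -178 (chr6:7541481-7541510, plus strand): gggcggcgggcgCAGGTGgggaggggcggc
DSP, from -85 (chr6:7541574-7541603, plus strand): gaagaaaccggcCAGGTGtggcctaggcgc

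Positions are those of the first base of the E-box relative to the start of the gene. A match is a description of the letters and does not show binding.

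PK-1 cells expressed most of these junction genes at a high level in every library. The values were deposited as log2 TPM, in which every TPM up to 1 is listed as 0. EPCAM was the most abundant in 3 libraries, with a log2 TPM of 9.16 with stable SPRR1A, 9.07 with stable DsRed, 8.88 with transient SPRR1A and 8.97 with transient GFP, that is, a TPM of 471 to 574. CLDN4, a claudin that tightens the barrier against sodium, had 8.79, 8.83, 8.84 and 9.04 in the same order and was the most abundant in transient GFP cells. CLDN7, the partner of EPCAM, had 8.11, 8.12, 8.02 and 8.08, and its range over the 4 libraries was 0.11, while 1.55% of the 9658 entities that reached a TPM of 5 throughout had a smaller one. These 3 genes held ranks 1 to 3 in every library and varied little, with ranges of at most 0.29.

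The cadherins and CLDN1 came next. CDH1 had a log2 TPM of 7.26 with stable SPRR1A, 7.03 with stable DsRed, 7.51 with transient SPRR1A and 7.75 with transient GFP. CDH3 (P-cadherin, a cadherin of basal epithelial layers) had 6.06, 6.02, 6.19 and 6.31. CLDN1, the claudin needed for the skin barrier, had 6.30, 5.80, 6.41 and 6.77. All 3 were lowest in stable DsRed and highest in transient GFP cells, over a range of 0.71 for CDH1, 0.98 for CLDN1 and 0.28 for CDH3. CDH1 made up 66.8% to 73.0% of the summed TPM of the 2 cadherins.

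The cytoplasmic linkers and occludin were lower. DSP, which anchors keratin filaments, had a log2 TPM of 5.93 with stable SPRR1A, 5.60 with stable DsRed, 5.74 with transient SPRR1A and 5.99 with transient GFP. TJP1, the ZO-1 scaffold, had 5.81, 5.42, 5.81 and 6.04. OCLN was the lowest of the 9 expressed genes, with 3.59, 3.46, 4.08 and 4.36. Each of the 3 was lowest in stable DsRed and highest in transient GFP cells. CLDN3, a barrier claudin closely related to CLDN4, was listed at 0 in all 4 libraries.

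**Figure D1:**
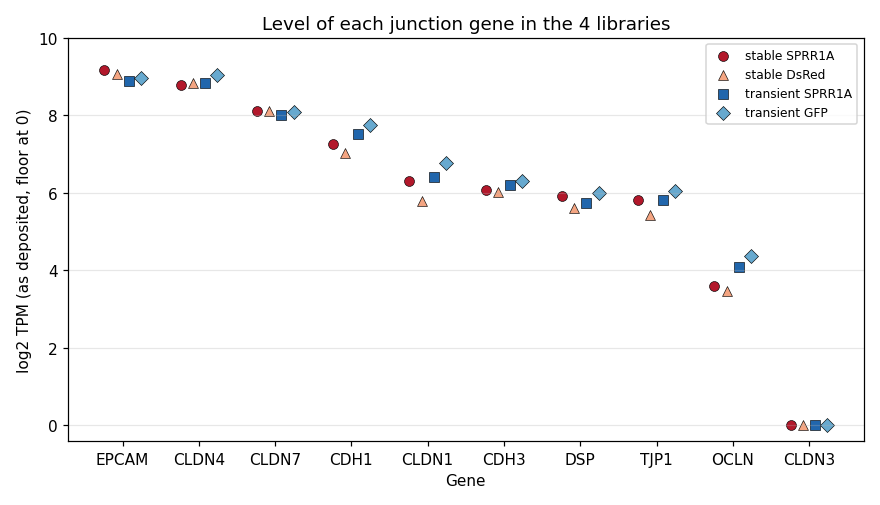
Log2 TPM of the 10 junction genes (y axis, as deposited, with a floor at 0) in each of the 4 libraries, ordered by mean level, with 1 point per library. EPCAM, CLDN4 and CLDN7 lie at 8.02 to 9.16 in all libraries, CLDN3 lies at 0, and stable DsRed (triangles) is the lowest point for 6 genes.

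Among the claudins, CLDN4 made up 55.5% to 58.0% of the summed TPM of the 4 genes in each library and CLDN7 29.9% to 35.3%. CLDN1 took 7.04% in stable DsRed, 9.85% in stable SPRR1A, 10.6% with transient SPRR1A and 12.1% with transient GFP. The order of these 4 claudins was therefore the same in every library, and the share that differed most in relative terms was that of CLDN1. Other expressed claudins, such as CLDN12 with a log2 TPM of 3.91 to 5.03, were not part of these sums.

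The labels were first checked with SPRR1A itself, which had a log2 TPM of 10.93 and 0.75 in the stable SPRR1A and DsRed libraries and of 16.60 and 3.56 in the transient SPRR1A and GFP libraries. In the transient SPRR1A library it took 9.90% of all TPM, which lowers the TPM of every other gene. The epithelial markers KRT8, KRT18 and KRT19 had log2 TPM values of 11.47 to 12.94, while the blood markers PTPRC, CD3E and CD14 and the endothelial markers PECAM1, CDH5 and CLDN5 were listed at 0 in all 4 libraries. Depth in reads is not known from these values.

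In the stable model, CLDN1, TJP1, DSP and CDH1 were higher in SPRR1A than in DsRed cells, and CLDN4 and CLDN7 were nearly level. The log2 difference was 0.50 for CLDN1 (1.42-fold), 0.39 for TJP1 (1.31-fold), 0.33 for DSP (1.26-fold) and 0.22 for CDH1 (1.17-fold). CLDN1 lay above 99.2% and TJP1 above 97.2% of the 9835 entities whose TPM reached 5 in both stable libraries, which were taken as well expressed. The differences were 0.12 for OCLN, 0.09 for EPCAM and 0.04 for CDH3, which turned to -0.02 after centring on the median of the well expressed entities. CLDN4 differed by -0.04 and CLDN7 by -0.01. Of the 9 expressed genes, 7 were higher and 2 lower in SPRR1A cells, with a median of 0.12, against 64.4% higher and a median of 0.06 over the well expressed entities.

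By the study's 2-fold rule, 0 of the 10 junction genes were called in the stable model, and 0.234% of all entities were. By a threshold of 0.5 on the log2 scale (1.41-fold), 1 of 9 passed, namely CLDN1, against 1.14% of the well expressed entities. CLDN1 passed only narrowly, since its difference was 0.49 with log2(TPM + 1), 0.495 with small RNAs left out of the TPM total and 0.44 after centring, each below the threshold. The claudins held both the largest difference of the 9 genes, that of CLDN1, and the lowest, that of CLDN4.

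For OCLN the pseudogene moved the other way in the stable model, and the same way as OCLN in the transient model and between the models. OCLNP1 had a log2 TPM of 0.78 with stable SPRR1A, 1.52 with stable DsRed, 1.88 with transient SPRR1A and 2.58 with transient GFP. When the TPM of both was summed, a choice made after the values were seen, OCLN with its copy differed by -0.02 in the stable model in place of 0.12. The sign for OCLN in the stable model thus changed, to a nearly level value, when the TPM of the copy was added. OCLNP1 was near the floor in both stable libraries. The effect of assigning reads otherwise between the copies was not tested.

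In the transient model, all 9 expressed genes had lower values in SPRR1A than in GFP cells, and so did 94.1% of the 10154 well expressed entities. The log2 difference was -0.37 for CLDN1, -0.28 for OCLN, -0.26 for DSP, -0.24 for CDH1, -0.23 for TJP1 and -0.20 for CLDN4. It was -0.12 for CDH3, -0.10 for EPCAM and -0.07 for CLDN7, and these 3 turned to 0.07, 0.09 and 0.12 after centring and to 0.03, 0.05 and 0.08 with SPRR1A removed from the TPM total. The median of the junction genes was -0.23, against -0.18 over the well expressed entities, and leaving SPRR1A out moved these medians to -0.08 and -0.03. CLDN1 stood farthest from the other entities, as 5.58% of them had a lower difference, and its centred difference was -0.18.

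By the 2-fold rule, 0 of the 10 were called in the transient model, as were 0.227% of all entities. By the threshold of 0.5, 0 of 9 passed, against 1.17% of the well expressed entities. After centring, the junction genes ran from -0.18 for CLDN1 to 0.12 for CLDN7.

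**Figure D2:**
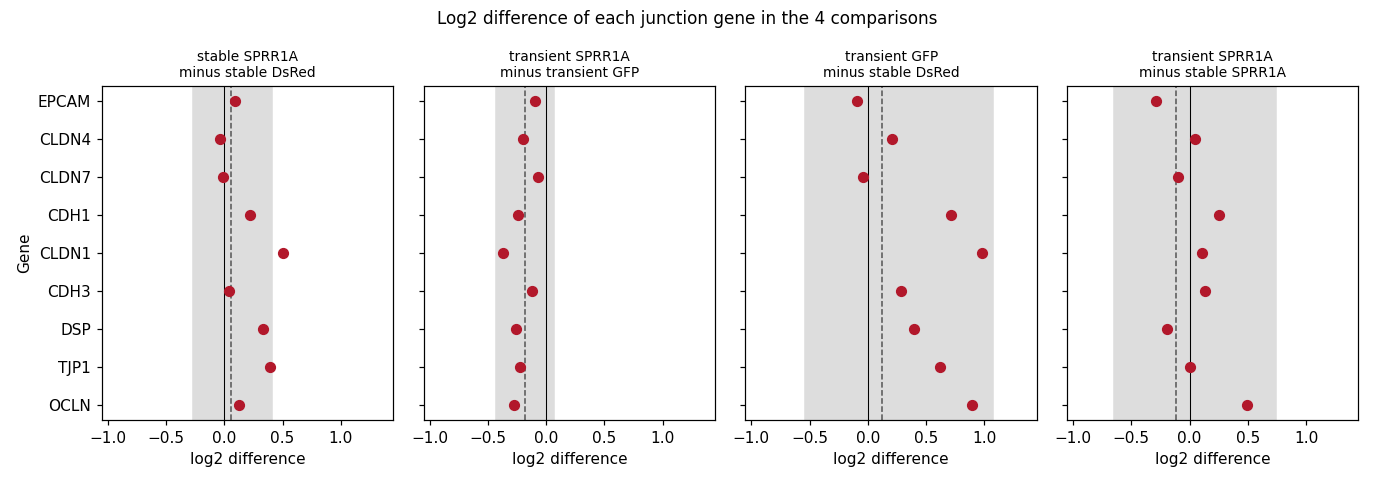
Log2 difference (x axis) of the 9 junction genes above the floor in the 4 comparisons, ordered by mean level, with the median of the well expressed entities (dashed line) and the range that holds their central 95% (grey band). CLDN1 at 0.50 in the stable model lies outside the grey band, which ends at 0.41, and in the transient model the points lie around the dashed line at -0.18.

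For CLDN1, OCLN, CDH1, TJP1, DSP and CDH3, the controls of the models differed by more than SPRR1A and its control did in either model. CLDN4 and EPCAM did so only by a slight margin. Their differences were 0.206 and -0.0963 between the controls, against -0.199 and -0.0959 in the transient model. After centring, DSP was nearly equal, with 0.273 between the controls and 0.269 in the stable model. CLDN4 then differed less between the controls (0.08) than in the stable model (-0.10). EPCAM and CLDN7 then differed more between the controls, with -0.22 and -0.16, than in either model. Between the controls, CLDN1 (log2 difference 0.98, 1.97-fold), OCLN (0.90, 1.86-fold), CDH1 (0.71, 1.64-fold) and TJP1 (0.62, 1.54-fold) were higher in transient GFP than in stable DsRed cells. DSP differed by 0.40, CDH3 by 0.28 and CLDN4 by 0.21. EPCAM and CLDN7 were slightly lower, with -0.10 and -0.04. The median of the 9 genes was 0.40, against 0.12 over 9810 well expressed entities, and 0.27 after centring.

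By the 2-fold rule, 0 of the 10 were called between the controls, against 1.92% of all entities, and CLDN1 lay just inside the limit. Of the 9810 well expressed entities, 315 were past 2-fold upward and 24 downward. By the threshold of 0.5, 4 of 9 passed, all of them higher in GFP cells, against 20.6% of the well expressed entities in either direction and 17.6% upward. After centring TJP1 was at 0.4957, below the threshold, and 3 passed. With OCLNP1 added, OCLN differed by 0.93.

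Between the 2 SPRR1A libraries, the differences ran from -0.29 for EPCAM to 0.495 for OCLN. OCLN was 0.495 higher in transient than in stable SPRR1A cells, CDH1 0.25, CDH3 0.13, CLDN1 0.11 and CLDN4 0.04. TJP1 was level, with a difference of 0.00076 that turned to -0.0048 with small RNAs left out of the TPM total. EPCAM differed by -0.29, DSP by -0.19 and CLDN7 by -0.10, the last of which turned to 0.02 after centring and to 0.05 with SPRR1A removed from the TPM total. The median was 0.04, against -0.11 over 9843 well expressed entities, and 0.19 with SPRR1A left out, where the well expressed entities were at 0.03.

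By the 2-fold rule, 0 of the 10 were called in that comparison, against 0.903% of all entities. Of the 9843 well expressed entities, 110 were past 2-fold upward and 27 downward. By the threshold of 0.5, 0 of 9 passed, against 12.0% of the well expressed entities. OCLN passed with 0.61 after centring, 0.64 with SPRR1A left out and 0.59 with OCLNP1 added. The comparisons share libraries, so a low value in stable DsRed cells enters both the stable model and the comparison of the controls. For CLDN1, CDH1, TJP1, DSP, OCLN and CDH3, that library held the lowest value, as it did for 36.6% of the 9658 entities that reached a TPM of 5 throughout. Transient GFP held the highest value for 7 of the 9 genes and for 53.0% of those entities.

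The 4 conditions therefore spread these genes unequally. The range over the libraries was 0.98 for CLDN1, 0.90 for OCLN and 0.71 for CDH1, wider than that of 95.6%, 94.0% and 87.5% of the same 9658 entities. TJP1 had a range of 0.62, and that of DSP, 0.40, was near the median of 0.38. EPCAM and CDH3 (0.29 and 0.28) and CLDN4 (0.24) lay below it. Vector, reporter protein, delivery and culture history all differ between the models, so their parts cannot be told apart.

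The differences went with transcript length, taken from the canonical transcripts of GENCODE 44. The short transcripts of EPCAM, CLDN4 and CLDN7 (1547, 1695 and 1542 nt) had the smallest differences in the comparison of the controls, and the long ones of DSP, TJP1, OCLN, CDH1 and CDH3 (9697, 7190, 6181, 4811 and 4452 nt) and of CLDN1 (3446 nt) had larger ones. Across 9338 to 9650 well expressed entities with a length, which are not independent replicates, Spearman's rho between length and difference was 0.32 between the controls, 0.36 in the stable model, -0.31 for the transient pair and 0.12 between the SPRR1A libraries. The median difference between the controls was -0.04 for transcripts under 2000 nt, 0.11 for those from 2000 to 4000 nt and 0.25 for longer ones.

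Set against the entities of the same length class, CLDN1 was still 0.86 above the class median between the controls, OCLN 0.65, CDH1 0.46 and TJP1 0.37. CLDN4 was 0.25, DSP 0.15 and CDH3 0.03 above it, CLDN7 was at 0.003 and EPCAM at -0.05 against it. In the stable model, CLDN1 was 0.45, TJP1 0.27, DSP 0.21, EPCAM 0.11 and CDH1 0.10 above the class median. OCLN and CLDN7 were at it, CLDN4 was at -0.02 and CDH3 at -0.08 against it. In the transient model, CLDN1 was at -0.19, OCLN at -0.06, CLDN4 at -0.06, DSP at -0.04, CDH1 at -0.02 and TJP1 at -0.01. CDH3, CLDN7 and EPCAM were 0.10, 0.07 and 0.05 above the class median there. The part of transcript length in these differences was not tested.

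**Figure D3:**
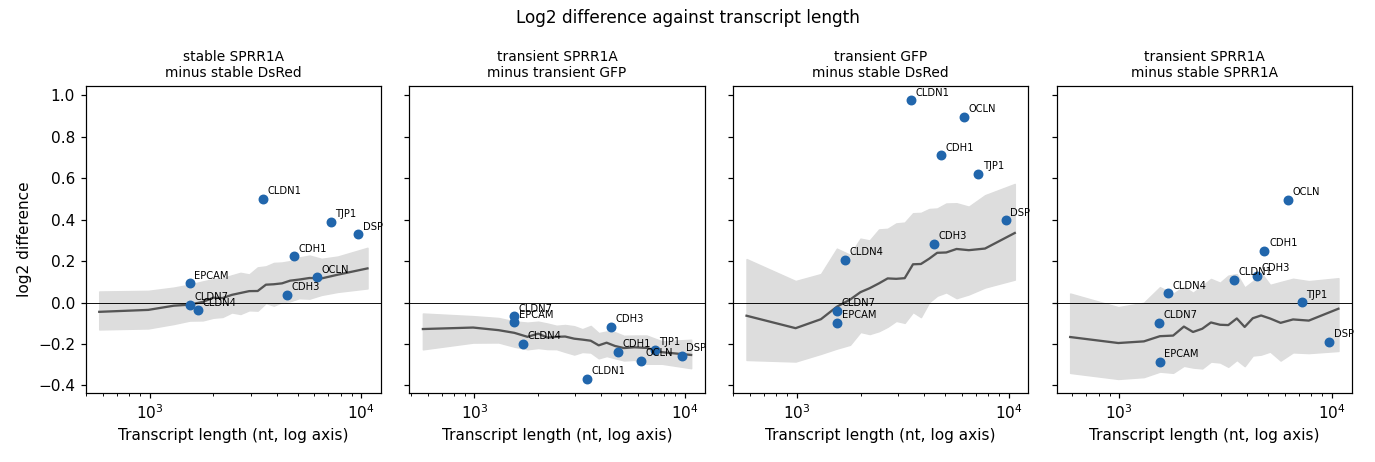
Log2 difference (y axis) against the length of the canonical transcript (x axis, log scale) in the 4 comparisons, with the 9 junction genes as points and, for 20 bins of well expressed entities by length, the median (line) and quartiles (grey). The median rises with length in the comparison of the controls and in the stable model, and CLDN1, OCLN, CDH1 and TJP1 lie above it between the controls.

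The other genes of the junctions were described from a list of 68 symbols, of which 66 were found, 14 were listed at 0 in all 4 libraries and 44 had a TPM of at least 5 in all. Those at 0 included 8 of the 20 genes of the tight junction strand, among them CLDN2, CLDN6, CLDN8, CLDN10 and CLDN18. In the adherens junction, CTNNA1 (alpha-catenin, 7.69 to 7.91) and JUP (plakoglobin, shared with desmosomes, at least 8.66) were the most abundant on the log2 TPM scale, and LSR, an angulin of tricellular contacts, led the tight junction strand with 8.90 to 9.16. In the desmosome, PPL (periplakin), PERP and the desmoglein DSG2 were the most abundant by the mean over the libraries, with log2 TPM values of 6.69 to 7.54, though the plakophilin PKP3 was above DSG2 in both stable libraries, while DSG1 and DSC1 were listed at 0.

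In the stable model, 37 of the 44 well expressed genes of this list were higher in SPRR1A cells (84.1%) and 7 lower, with a median log2 difference of 0.13. Over all well expressed entities, 64.4% were higher and 0.783% were above 0.5, with a median of 0.06. That median was 0.12 for transcripts of 4000 nt or more and -0.02 for those under 2000 nt. The genes of this list were not set against length classes. The genes above 0.5 were NECTIN4, a nectin that starts cell contacts (0.53), and DSG3, a desmosomal cadherin of squamous epithelia (0.54), and both fell short of it after centring, with 0.47 and 0.48. CGNL1, the junction protein paracingulin, differed by 0.55 at a TPM under 5 in DsRed cells. In the transient model, 43 of 45 had lower values in SPRR1A cells (95.6%), with a median of -0.20, and 0 were beyond 0.5. Over all well expressed entities 94.1% were lower, with a median of -0.18, and 1.17% were beyond 0.5.

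Between the controls, 14 of the 44 genes (31.8%) were above 0.5 and 1 (2.27%) was below -0.5, with a median of 0.33. Over all well expressed entities, 17.6% were above 0.5 and 3.04% below -0.5, with a median of 0.12. That median was 0.25 for transcripts of 4000 nt or more and -0.04 for those under 2000 nt, and the part of length was not tested. DSG3 was 1.52 higher in transient GFP than in stable DsRed cells, NECTIN4 1.32, the claudin CLDN12 1.12 and the polarity gene PARD6B 0.95. DLG1 (0.79), MARVELD2, the tricellulin that seals corners between cells (0.77), DSG2 (0.74), CTNNB1, the catenin that binds E-cadherin (0.67), PRKCI (0.67), MPP5 (0.66), AFDN (0.63), F11R (0.62), VCL (0.58) and PATJ (0.51) made up the rest above it. PARD6A was below -0.5, with -0.59. CLDN15 (0.99) and CGNL1 (0.78) were higher as well but had a TPM under 5 in DsRed cells. The genes above 0.5 thus came from the adherens junction (4), the tight junction strand (3), its scaffold (5) and the desmosome (2). Between the SPRR1A libraries, NECTIN4 (0.84) and DSG3 (0.75) were above 0.5 and SCRIB (-0.53) was below -0.5.

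**Figure D4:**
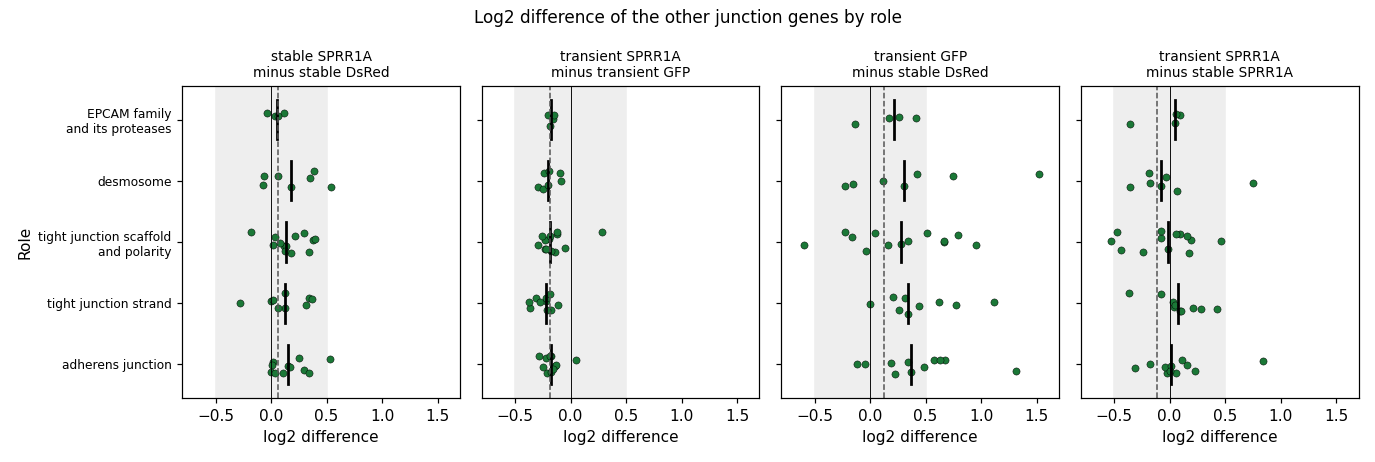
Log2 difference (x axis) of the other well expressed junction genes in the 4 comparisons, grouped by role, with 1 point per gene, the median of each role (black bar), the median of all well expressed entities (dashed line) and the span within 0.5 (grey). Between the controls 14 genes lie to the right of the grey span and 1 to its left, and in the transient model all lie inside it.

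Of the repressors of junction genes, ZEB1, ZEB2 and TWIST1 were listed at 0 in all 4 libraries. SNAI2 (Slug) had a log2 TPM of 5.24 with stable SPRR1A, 5.06 with stable DsRed, 5.84 with transient SPRR1A and 6.03 with transient GFP, and SNAI1 (Snail) had 1.84, 1.63, 3.37 and 3.37. Both were higher in the transient libraries, in which CDH1, CDH3, CLDN1, CLDN4 and OCLN were higher as well and EPCAM and CLDN7 lower. DSP and TJP1 were higher between the controls, but differed by -0.19 and 0.00076 between the SPRR1A libraries. Of the promoter windows searched, those of OCLN, DSP and TJP1 held the E-box. The differences of SNAI2 and SNAI1 were 0.98 and 1.74 between the controls and 0.19 and 0.21 for the stable pair. For the transient pair they were -0.20 and 0.00055, and after centring -0.02 and 0.18. TCF3 (E2A) differed by -0.59 between the SPRR1A libraries, in which SNAI2 and SNAI1 differed by 0.59 and 1.54.

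All 10 genes of the list of epithelial regulators were above 0 in every library. EHF, an epithelial ETS factor, had a log2 TPM of 5.94 with stable SPRR1A and 5.58 with stable DsRed. It had 6.49 with transient SPRR1A and 6.74 with transient GFP. This order of the libraries was also that of CDH1, of the repressor SNAI2, and of CTNNB1 and DSG3, so it does not single out EHF. ESRP1, a splicing regulator of epithelia, differed by 0.51 between the controls. At low levels, with a TPM under 5 in stable cells, OVOL1 and GRHL1 differed by 1.02 and 0.86 between the controls and by 1.15 and 0.87 between the SPRR1A libraries. GRHL2, which activates CDH1 and claudin genes, had 5.73, 5.65, 5.48 and 5.67 and stayed within 0.25 over the 4 libraries. In the stable model 6 of 7 well expressed regulators were higher in SPRR1A cells, with a median of 0.11 and 0 beyond 0.5, against 64.4% higher, a median of 0.06 and 1.14% beyond 0.5 over all well expressed entities.

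Among mesenchymal markers, CDH2 (N-cadherin) was listed at 0 in all libraries, and VIM (vimentin) had a log2 TPM of 5.32 with stable SPRR1A, 5.08 with stable DsRed, 5.28 with transient SPRR1A and 5.23 with transient GFP. VIM thus differed by 0.05 between the transient libraries and by 0.25 between the stable libraries, where CDH1 differed by 0.22 in the same direction. FN1 (fibronectin), the other marker above 0, went the other way to VIM in both models. It differed by -0.14 between the stable libraries and by -0.35 between the transient libraries, with a TPM under 5 in transient SPRR1A cells.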

How the data were processed

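Total RNA of 4 PK-1 cultures, 1 library each, was sequenced as stranded mRNA libraries in paired-end mode. Per the study's methods and the labels, the reads were matched by Strand NGS, with its default settings, to hg38 transcripts, and the authors deposited TPM as log2 values per gene. The version, annotation and treatment of multiply matching reads are not given in the sources used here. Because TPM is a share, an abundant transgene lowers all other values.

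Log2 differences were computed between libraries without a pseudocount. Entities whose TPM reached 5 in both libraries compared were called well expressed. Differences were counted past 2-fold over all entities and past 0.5 (log2) over the well expressed. Entities listed at 0 in both libraries, as CLDN3 was, could not pass 2-fold. Named were all 10 junction genes, list genes past 0.5 whose TPM reached 5 in 1 library or more, and up to 3 of the highest level per role. Single genes named otherwise, and the length classes, were picked after their values were seen. The junction genes and lists were chosen with earlier results of these data known. Of 2 rows with 1 symbol the higher was used. Positions and promoters came from RefSeq (GRCh38, patch 14), and lengths from GENCODE 44, for 95.0% to 95.2% of the well expressed entities.

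Alternatives were log2(TPM + 1), log2(TPM + 0.1), centring, leaving SPRR1A or small RNAs out of the TPM total, no filter, and a TPM of at least 20. The computations ran in Python 3.11.15 with pandas 2.3.3, numpy 2.4.6 and scipy 1.17.1, and plots in matplotlib 3.10.9.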

Additional observations from a re-analysis of the deposited data

Results flagged for a closer look

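For 7 junction genes the SPRR1A library was above its control in the stable model and below it in the transient model. The stable difference minus the transient difference on the log2 scale was 0.87 for CLDN1, 0.62 for TJP1, 0.59 for DSP, 0.46 for CDH1, 0.40 for OCLN, 0.19 for EPCAM and 0.16 for CDH3. With a single library per condition, these differences were not tested. Of the 9658 entities that reached a TPM of 5 throughout, 62.5% showed the same pair of directions. Over all 9658, whatever their directions, the median of the stable minus the transient difference was 0.24, which was not matched for transcript length. Among well expressed transcripts of 4000 nt or more, the median was 0.12 for the stable and -0.22 for the transient pair. Against these class medians, OCLN was at 0.0005 and -0.06, and CDH1 at 0.10 and -0.02. DSP was at 0.21 and -0.04, TJP1 at 0.27 and -0.01, and CDH3 at -0.08 and 0.10. In their own length classes, CLDN1 was at 0.45 and -0.19, and EPCAM at 0.11 and 0.05. With OCLNP1 added, OCLN no longer had opposite directions, with -0.02 for the stable and -0.36 for the transient pair. After centring each model, CLDN1 was still 0.63 apart, TJP1 0.38, DSP 0.34, CDH1 0.22 and OCLN 0.16, EPCAM no longer had opposite directions, and CDH3 had them the other way round, with -0.02 for the stable and 0.07 for the transient pair. CLDN7 then had opposite directions too, with -0.07 and 0.12.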

How the results depend on the processing

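No paired analysis was possible because no condition has more than 1 library, and for the same reason no library could be left out. An alternative was taken to move a median when it shifted it by over 0.1 on the log2 scale, and a count when it changed it by over 1.5 times. The median of the junction genes moved to -0.078 with SPRR1A removed from the TPM total and to -0.046 after centring in the transient model, to 0.19 and 0.16 between the SPRR1A libraries, and to 0.27 after centring between the controls. In the stable model the count of junction genes past 0.5 was 0 after centring, with log2(TPM + 1) and with small RNAs left out of the TPM total, and the count of the wider list was 0 after centring and with log2(TPM + 1). Between the SPRR1A libraries the count of junction genes was 1 after centring and with SPRR1A left out. The other 64 medians and counts, which include all those with no filter and with a TPM of at least 20, did not move. Of the values of single genes, 177 kept their side of the threshold of 0.5, 4 no longer passed it and 3 newly passed it. The summing of OCLN with OCLNP1 was chosen after seeing the data. Depth in reads is unknown, so counting error cannot be given.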

Other observations

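The keratins of simple epithelia and FN1 differed between the models in the direction opposite to CLDN1, OCLN and CDH1. KRT8, KRT18 and KRT19 were lower in transient GFP than in stable DsRed cells, with log2 differences of -0.35, -0.49 and -0.26. They were also lower in transient than in stable SPRR1A cells, with -0.48, -0.51 and -0.42. Of the well expressed entities, 36.2% were lower in the first comparison and 65.0% in the second. After centring, the keratins differed by -0.47, -0.61 and -0.38 between the controls and by -0.36, -0.40 and -0.30 between the SPRR1A libraries. FN1 (fibronectin) had a log2 TPM of 3.47 with stable SPRR1A, 3.62 with stable DsRed, 2.29 with transient SPRR1A and 2.64 with transient GFP. None of the 4 genes was beyond 0.5 within either model.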
